A study of Homo sapiens with 4 samples.

Results

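The multidomain BCL2 family genes, 5 guardians and 3 effectors of mitochondrial apoptosis, were followed in RNA sequencing of U87MG cells, an established human glioblastoma line. The members were taken as a list by symbol: the anti-apoptotic *BCL2*, *BCL2L1*, *BCL2L2*, *MCL1* and *BCL2A1*, and the pore-forming *BAX*, *BAK1* and *BOK*. These are 8 of the 57905 genes listed for each sample. There were 2 control samples, left untreated, and 2 samples given 50 nM chaetocin, a fungal metabolite that inhibits histone methyltransferases and thioredoxin reductase, for 24 h. All 4 samples were wild-type cells of the same line, grown in the same medium with serum. Chaetocin was given in DMSO and the control cells received nothing, so compound and solvent cannot be told apart. Replicates are separate samples by their labels. The study's methods describe duplicates of cells seeded in wells and do not say whether the duplicates were independent experiments. The p-values measure the spread between these samples, which may be technical.

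The BCL2 family decides whether the outer mitochondrial membrane is opened during apoptosis. Guardian proteins hold the effectors and the BH3-only proteins in check, and when BH3-only proteins occupy the guardians, BAX and BAK assemble into pores that let cytochrome c out and activate caspases. In glioblastoma cells the pathway is of interest because BH3 mimetics, compounds that occupy the groove of guardian proteins, are combined with other apoptosis inducers. Messenger RNA is one layer of this control, and protein stability and binding are others that were not measured here.

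The libraries held between 21241984 and 32590479 counts. Values are given as CPM, the reads of a gene scaled to a common library size, and 3 reads equal 0.0921 CPM in the deepest library and 0.141 CPM in the shallowest. This limit covers counting error only, since PCR copies are not independent molecules. Line markers fitted the label in part: *VIM* had between 1148 and 2797 normalized CPM, *GFAP* had between 10 and 25 reads in each sample, and *SOX2* had 0 reads in both controls and 2 and 5 reads with chaetocin. All 12 tested line markers of 13 had fitted differences below 0, with a median log2 fold change of -0.76, and *CHI3L1*, a secreted glycoprotein of mesenchymal glioma, fell from 140 ± 27.2 to 57.9 ± 0.58 normalized CPM (SD, n = 2 each, edgeR adjusted p = 0.0266). By edgeR 1 of the 12 passed, against 1.85% of all genes, and 6 had an unadjusted p under 0.05, against 20.3%. By DESeq2 5 passed, against 5.08% of all genes: *VIM*, *CD44*, *CHI3L1*, *FN1* and *SPARC*. The summed level of the 13 line markers ranged from 16572 to 19958 CPM in controls and from 8187 to 13211 CPM after chaetocin, and its part in the differences of the members was not tested.

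Which of these genes supply the guardian and effector messages of U87MG cells was asked first, on levels per length: normalized CPM divided by the kilobases of annotated exon. *MCL1* was the most abundant member, at 145 ± 6.35 CPM per kb in control cells (SD, n = 2), above 98.9% of the 15981 tested genes with a length. *BCL2L1*, which encodes BCL-XL, followed at 60.6 ± 0.15 CPM per kb, and *BAX* at 27.5 ± 0.12 CPM per kb. *BCL2L2*, the gene of BCL-W, was at 6.13 ± 0.44 CPM per kb, *BAK1* at 1.95 ± 0.04 and *BCL2*, the founding member, at 0.54 ± 0.18. *MCL1* and *BCL2L1* made up 68.3% and 28.5% of the summed guardian level, and *BAX* made up 93.35% of the summed effector level. The order of the 8 genes was the same in both groups, but not every neighbour was separated. In control cells no range of one member met that of the next. With chaetocin, *BCL2L1* had 49.3 and 35.7 CPM per kb and *BAX* had 38.8 and 32.3, so their ranges overlapped.

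**Figure D1:**
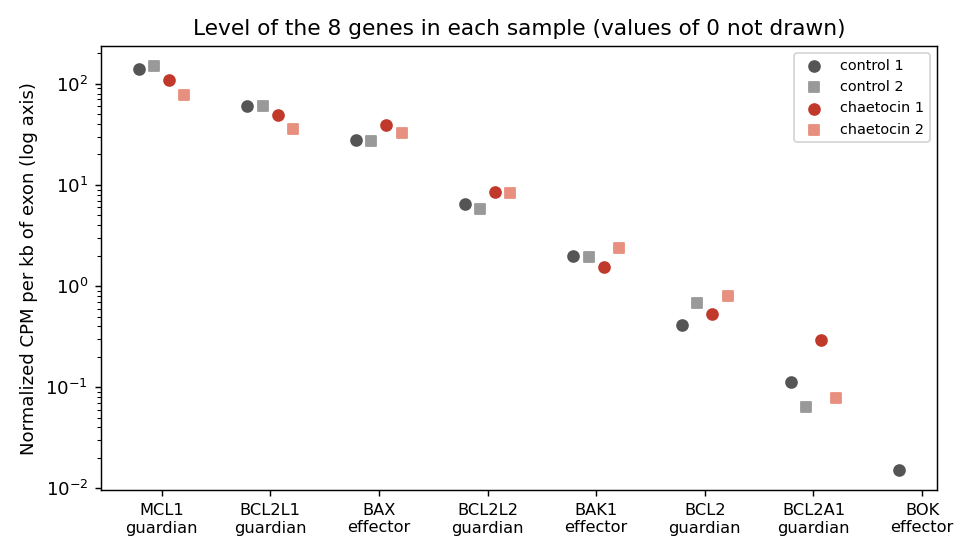
Normalized CPM per kilobase of exon (log axis) of the 8 genes in each of the 4 samples, 1 point per sample and values of 0 not drawn. The genes fall from *MCL1*, between 77.5 and 149 CPM per kb, to *BOK*, with 1 read in 1 control sample, and the chaetocin points of *BCL2L1* and *BAX* overlap in range.

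At the low end, *BCL2A1* (ENSG00000140379, chromosome 15, minus strand, bases 79960889 to 79971446), a guardian gene of haematopoietic and NF-kB-activated cells, had 3 and 2 reads in controls and 7 and 3 after chaetocin. *BOK* (ENSG00000176720, chromosome 2, plus strand, bases 241551424 to 241574138), an effector gene related to *BAX*, had 1 and 0 reads in controls and 0 in both chaetocin samples. Neither passed the filter on low counts, so 6 of the 8 members were tested. With at most 7 reads in a library, no difference of *BCL2A1* or *BOK* was detectable at this depth. Of 19 leukocyte marker genes, 9 were tested, 2 were higher at an edgeR adjusted p under 0.05 and 0 lower (1.11% and 0.743% of all genes), and the summed level of all 19 was 38.8 and 30.3 CPM in controls against 54.4 and 37.2 after chaetocin. *CSF1R*, a macrophage receptor gene, held most of this sum in 3 of the 4 samples, with 27.2 and 22.0 CPM against 32.7 and 15.1. The other 18 markers summed to 11.6 and 8.32 CPM in controls against 21.6 and 22.1, a sum taken after seeing the data. The 2 genes that passed were *CD53*, with 24 and 22 reads against 99 and 166, and *PTPRC*, with 0 and 1 against 15 and 27. *PTPRC* passed the filter on low counts only through the chaetocin samples, so its call could go in no other direction. It was not tested when each sample had to reach 10 counts. For *PTPRC* the DESeq2 adjusted p was 0.0569, and the edgeR adjusted p was 0.0617 after thinning and 0.0964 without control replicate 1. Of the 19, 3 had 0 reads in all samples, among them *CD3E* and *MS4A1*, and 7 had 0 reads in both controls. The T cell marker *CD2* had 27 and 35 reads in controls against 40 and 96, and the B cell marker *CD79A* had 2 and 0 against 11 and 10. The part of these marker reads in the count of *BCL2A1* was not tested.

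The effect of chaetocin on each member was taken from edgeR's quasi-likelihood test across 16416 genes. Of the 6 tested members, 0 passed an adjusted p of 0.05, against 1.85% of all genes tested (182 genes higher, 1.11%, and 122 lower, 0.743%). With upper-quartile normalization the split over all genes was 246 higher and 88 lower. At an unadjusted p under 0.05 there were 4 of the 6, against 20.3% of all genes. They were *MCL1* and *BCL2L1*, with fitted differences below 0 (9.43% of all genes), and *BCL2L2* and *BAX*, with differences above 0 (10.9%). In the same 4 members the groups did not overlap, which was also so for 52.7% of all genes (26.8% with chaetocin higher and 26% with chaetocin lower). By DESeq2's Wald test 1 of the 6 passed, *MCL1*, against 5.08% of genes by that test, 2.82% lower. The median fitted log2 fold change was -0.12 over the 4 tested guardians, 0.20 over the 2 tested effectors and 0.01 over all genes. In bulk RNA, fewer cells with a message and less message per cell cannot be told apart.

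**Figure D2:**
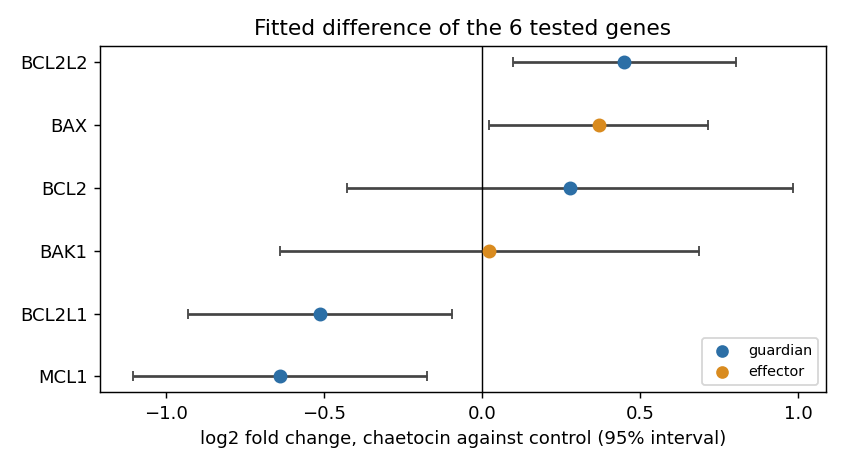
Fitted log2 fold change of the 6 tested genes, chaetocin against control, with unadjusted 95% intervals from edgeR's quasi-likelihood fit. The intervals of *MCL1* and *BCL2L1* lie below 0, those of *BCL2L2* and *BAX* above 0, and those of *BCL2* and *BAK1* span 0.

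*MCL1* (ENSG00000143384) maps to chromosome 1 of GRCh38 (minus strand, bases 150574551 to 150579738), and encodes a short-lived guardian that binds BAK and several BH3-only proteins. Its normalized CPM was 614 and 653 in controls and 476 and 339 in chaetocin-treated cells. Both chaetocin samples lay below both controls, and the chaetocin samples differed from each other by 0.49 on the log2 scale against 0.09 between the controls. The fitted log2 fold change was -0.64 (standard error 0.20, 95% interval -1.10 to -0.17, edgeR adjusted p = 0.135), among the lowest 6.2% of fitted values over all genes. The call depended on the processing: the adjusted p was 0.0324 with DESeq2 and 0.0101 without the filter on low counts, a setting that called 4.88% of genes. Without chaetocin replicate 1 the log2 fold change was -0.90 (edgeR adjusted p = 0.00105, in a fit that called 17% of genes), and without chaetocin replicate 2 it was -0.42 (adjusted p = 0.10).

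*BCL2L1* (ENSG00000171552) maps to chromosome 20 (minus strand, bases 31664452 to 31723989). Its normalized CPM was 201 and 200.5 in controls and 163 and 118 after chaetocin. As for *MCL1*, both chaetocin samples lay below both controls and replicate 2 had the lowest value. The log2 fold change was -0.51 (standard error 0.18, 95% interval -0.93 to -0.10, edgeR adjusted p = 0.169). The adjusted p was 0.0497 without the filter and 0.00149 without chaetocin replicate 1, where the log2 fold change was -0.76. The value without chaetocin replicate 2 was -0.30. Gene counts add up the long product BCL-XL and the short splice product BCL-XS, which promotes apoptosis, so the counts do not say which form was present. An antisense gene, *ABALON*, covers 1424 of the 3314 exon bases of *BCL2L1* on the other strand and was not analysed here. Whether the counting used strand is not given in the sources used here.

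*BCL2L2* (ENSG00000129473) maps to chromosome 14 (plus strand, bases 23298790 to 23311759). Its normalized CPM was 27.0 and 24.4 in controls and 35.3 and 34.8 after chaetocin. The chaetocin samples agreed closely and lay above both controls, opposite in sign to *MCL1* and *BCL2L1*. The log2 fold change was 0.45 (standard error 0.15, 95% interval 0.10 to 0.80, edgeR adjusted p = 0.155). It shares 813 of its 4189 exon bases with the read-through gene *BCL2L2-PABPN1*, which had 37 and 49 reads in controls and 18 and 84 after chaetocin. With the reads of both genes summed, the log2 fold change was 0.43. It also shares 206 exon bases with *PPP1R3E*, which had 132 and 170 reads in controls and 182 and 388 after chaetocin, and the part of these reads in its count was not tested.

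*BCL2* (ENSG00000171791) maps to chromosome 18 (minus strand, bases 63123346 to 63320128). Its normalized CPM was 4.88 and 7.93 in controls and 6.20 and 9.29 after chaetocin, from between 119 and 330 reads. The groups overlapped, and samples of the same group differed by 0.70 on the log2 scale among the controls and 0.58 among the chaetocin samples, more than the fitted log2 fold change of 0.28. Its 95% interval, -0.43 to 0.98, covers folds between 0.74 and 1.98 (edgeR adjusted p = 0.659), so neither a modest decrease nor an increase close to a doubling could be told from no difference. Its sign turned without control replicate 1 (-0.04) and without chaetocin replicate 2 (-0.06).

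*BAX* (ENSG00000087088) maps to chromosome 19 (plus strand, bases 48954815 to 48961798), and encodes the effector that moves from the cytosol to mitochondria. Its normalized CPM was 71.4 and 71.0 in controls and 100.3 and 83.7 after chaetocin. The control samples were nearly equal and both chaetocin samples lay above them. The log2 fold change was 0.37 (standard error 0.15, 95% interval 0.02 to 0.72, edgeR adjusted p = 0.222). Without chaetocin replicate 2 it was 0.49, with an adjusted p of 0.0297 in a fit that called 9.82% of genes, and without chaetocin replicate 1 it was 0.24.

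*BAK1* (ENSG00000030110) maps to chromosome 6 (minus strand, bases 33572547 to 33580293), and encodes the effector that resides in the mitochondrial membrane. It had 4.38 and 4.25 normalized CPM in controls and 3.40 and 5.29 after chaetocin. The chaetocin samples lay on opposite sides of the controls. The log2 fold change was 0.02, with a 95% interval from -0.64 to 0.69 that covers folds between 0.64 and 1.61 (edgeR adjusted p = 0.974). The sign turned without control replicate 2 (-0.01) and without chaetocin replicate 2 (-0.35). Of its stretches of 50 bases, the read length, 12.3% also occur in the pseudogene *BAK1P1*, which had 10 and 7 reads in controls and 1 and 15 after chaetocin, so that the count of *BAK1* is uncertain by reads that could be assigned to either.

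**Figure D3:**
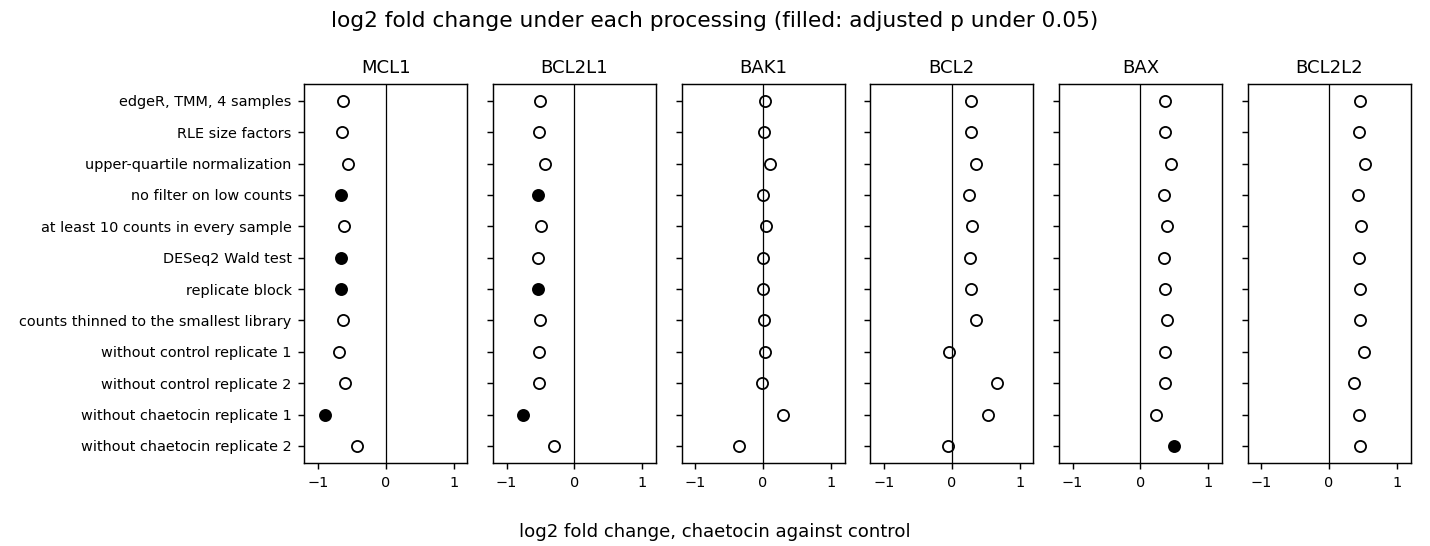
Log2 fold change of each tested member (columns) under the reported fit and 11 alternatives (rows), filled where the adjusted p was under 0.05; the fit with a replicate block called 12.7% of all genes. *MCL1* is filled in 4 alternatives, *BCL2L1* in 3 and *BAX* in 1, while the points of *BCL2* and *BAK1* cross 0 when a sample is left out.

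The members named as guardians and effectors were then set against each other within each sample, as log2 ratios of levels per length. These ratios need no scaling between libraries. They get no p-value, since an exact permutation test of 2 against 2 samples cannot go below 0.333 and the members were chosen with results known. Summed guardian messages exceeded summed effector messages in all 4 samples, 7.04-fold and 7.38-fold in controls and 4.15-fold and 3.52-fold in chaetocin-treated cells. On the log2 scale the means were 2.85 and 1.94, a difference of -0.91, with a gap of 0.07 between the controls and of 0.24 between the chaetocin samples. The summed guardian level was 212 ± 5.91 CPM per kb in control cells and 145 ± 31.9 with chaetocin, and the summed effector level was 29.5 ± 0.17 and 37.5 ± 3.95 (SD, n = 2 each).

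*MCL1*, *BCL2L1* and *BAX* hold nearly all of both sums. *MCL1* to *BAX* was 5.09 and 5.45 in controls and 2.81 and 2.40 after chaetocin. *BCL2L1* to *BAX* was 2.20 and 2.21 against 1.27 and 1.10. The groups did not overlap in either ratio. *MCL1* to *BCL2L1*, between the 2 abundant guardians, was 2.31 and 2.47 against 2.21 and 2.17, with both chaetocin samples below both controls by a log2 difference of -0.13 between the means. *BCL2L2* to *BAX* overlapped between the groups, at 0.233 and 0.212 against 0.217 and 0.257, and so did *BAX* to *BAK1*, at 13.9 and 14.3 against 25.2 and 13.5. With each gene weighted equally by its mean log2 level (*BOK* left out, as it had no reads in 3 samples), the difference was -0.09 instead of -0.91. Without *BAX*, where *BAK1* makes up nearly all of the effector sum, it was -0.54 and the groups overlapped. It was 0.01 without chaetocin replicate 2 and -1.08 without chaetocin replicate 1, 2 values computed after seeing the data. *MCL1* to *BAK1* was 70.9 and 77.9 in controls and 70.8 and 32.4 after chaetocin, and *BCL2L1* to *BAK1* was 30.6 and 31.5 against 32.1 and 14.9, so that in both ratios chaetocin replicate 2 alone lay far from the controls.

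**Figure D4:**
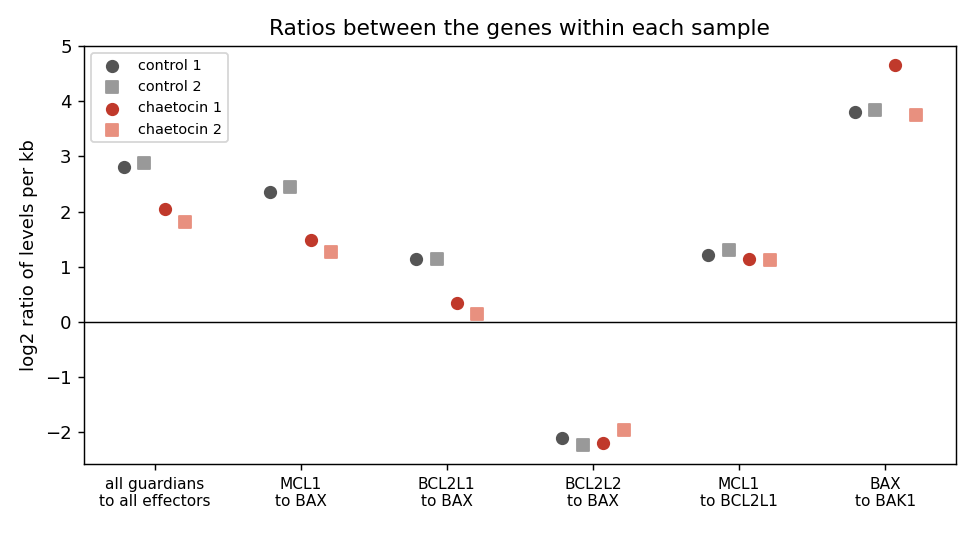
Log2 ratios of levels per kilobase within each of the 4 samples, 1 point per sample, with 0 marking equal levels. In the ratios of all guardians to all effectors, of *MCL1* to *BAX* and of *BCL2L1* to *BAX*, both chaetocin samples lie below both controls, and *BCL2L2* to *BAX* and *BAX* to *BAK1* overlap.

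Levels between genes depend on the length used. With the length of the longest annotated transcript in place of all exons, *BCL2L1* to *BAX* was 1.47 in both control samples and 0.848 and 0.735 after chaetocin, so that *BAX* then lay above *BCL2L1* in both chaetocin samples. The difference between the groups, -0.90 on the log2 scale, does not depend on the length.

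To show the sequence at the start of the members with high levels and opposite fitted signs, promoter windows of RefSeq on GRCh38.p14 are given, from 250 bases before to 50 bases after a start site, 5′ to 3′ on the strand of the gene. Windows matched for 6 of the 8 members, *BCL2L1* with 2, and none matched for *MCL1* or *BCL2L2*. Capitals mark the E-box CACGTG, a site of MYC, MAX and USF factors, and the GC box GGGCGG, a site of SP1, on either strand. The *BAX* window is chr19:48954625-48954924 on the plus strand, and the *BCL2L1* windows are chr20:31723914-31724213 and chr20:31722819-31723118 on the minus strand.
BAX: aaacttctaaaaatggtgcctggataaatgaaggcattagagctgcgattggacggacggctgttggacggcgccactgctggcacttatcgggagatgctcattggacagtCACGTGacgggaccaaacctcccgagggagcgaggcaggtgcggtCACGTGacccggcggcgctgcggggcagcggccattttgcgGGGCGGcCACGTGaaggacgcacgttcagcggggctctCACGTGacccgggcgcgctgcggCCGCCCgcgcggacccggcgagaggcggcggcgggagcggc
BCL2L1, upstream start: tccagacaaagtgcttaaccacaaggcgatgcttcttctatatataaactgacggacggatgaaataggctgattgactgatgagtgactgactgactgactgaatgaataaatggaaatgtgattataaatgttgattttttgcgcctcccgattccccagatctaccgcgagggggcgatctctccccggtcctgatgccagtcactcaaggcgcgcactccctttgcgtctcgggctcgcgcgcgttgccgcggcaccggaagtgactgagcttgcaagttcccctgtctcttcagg
BCL2L1, downstream start: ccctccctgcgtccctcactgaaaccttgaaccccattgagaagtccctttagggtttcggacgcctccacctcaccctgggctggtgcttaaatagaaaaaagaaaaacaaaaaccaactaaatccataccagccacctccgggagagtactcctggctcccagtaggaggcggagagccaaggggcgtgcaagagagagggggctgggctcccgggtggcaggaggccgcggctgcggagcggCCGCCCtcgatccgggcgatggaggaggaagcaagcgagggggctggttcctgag

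The *BAX* window holds CACGTG 4 times, a number reached in 5 of 35116 windows of all genes, and 7.26% of windows hold it at least once. No other member window holds it. GGGCGG occurs 2 times in the *BAX* and the *BAK1* window, once in that of *BOK* and in the downstream *BCL2L1* window, and in 45% of all windows. The antioxidant response element core TGACNNNGC occurs once in *BAX*, where it overlaps an E-box, and once in the upstream *BCL2L1* window (13.3% of all windows), and TATAAA 2 times in that *BCL2L1* window and once in *BCL2A1* (11.5%). The motifs were chosen with the fold changes known, and a match of letters says nothing about binding in these cells. A further motif that was searched is not reported here.

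Around the members, the BH3-only genes encode the activators and the antagonists of guardians. Of 8, 7 were tested, 1 was higher at an edgeR adjusted p under 0.05 and 0 lower, against 1.11% and 0.743% of all genes. At an unadjusted edgeR p under 0.05 there were 3 of the 7, against 20.3% of all genes, 2 higher and 1 lower. By DESeq2 the same 1 gene passed, against 5.08%. Above 0 were 6 fitted differences, against 50.9% of all genes (median log2 fold change 0.41, against 0.01 over all genes). The gene that passed was *BCL2L11*, which encodes BIM, a ligand of every guardian and a direct activator of BAX. It rose from 6.64 and 6.47 normalized CPM to 12.5 and 20.3, a log2 fold change of 1.33 (standard error 0.26, edgeR adjusted p = 0.0466). Both chaetocin samples lay above both controls. Its adjusted p was 0.0561 when each library had to reach 10 counts and 0.055 with libraries thinned to the smallest, and the log2 fold change was 0.93 without chaetocin replicate 2. The gene below 0 was *BID*, which encodes an activator that is turned on by cleavage and was named after its values were seen, with 67.4 and 52.7 normalized CPM in controls against 44.4 and 37.3 and an adjusted p of 0.136. Of the 5 other BCL2-like genes, 3 were tested and 0 passed by edgeR or DESeq2, with 1 at an unadjusted edgeR p under 0.05 (20.3% of all genes). *BCL2L12*, which encodes a glioma-expressed inhibitor of caspases, went from 22.7 and 24.5 normalized CPM in controls to 32.0 and 34.4, with an adjusted p of 0.134. Its adjusted p was 0.0455 with a replicate block, a fit that called 12.7% of genes, and 0.217 with DESeq2. The log2 fold change was between 0.42 and 0.55 with a sample left out. *BCL2L15* had between 15 and 43 reads in each library and a log2 fold change of 0.54 (adjusted p = 0.554), which was 0.12 without control replicate 1 and 1.15 without control replicate 2.

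At the mitochondrial membrane, 12 genes of BAX and BAK partners and of mitochondrial dynamics were tested, among them the VDAC channels and the fusion and fission proteins. By edgeR 0 passed the test, 12 of 12 fitted differences were below 0, against 49.1% of all genes, and their median log2 fold change was -0.21. With upper-quartile normalization 11 were below 0, and without chaetocin replicate 2 it was 10. *SH3GLB1*, whose product binds BAX, had 149 and 138 normalized CPM in controls and 114 in both chaetocin samples (edgeR adjusted p = 0.236). *OPA1*, of the inner membrane fusion machinery, had 180 and 211 against 141 and 168 (adjusted p = 0.286), a log2 fold change of -0.34 that was -0.22 without chaetocin replicate 1. At an unadjusted p under 0.05 there was 1 of the 12 by edgeR, against 20.3% of all genes, and by DESeq2 0 passed after adjustment, against 5.08%.

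Downstream of the pore, 10 genes of the apoptosome, the caspases and their inhibitors were tested and 0 passed by edgeR, with 2 at an unadjusted p under 0.05, against 20.3% of all genes, and 1 passed by DESeq2, against 5.08% of all genes. *XIAP*, an inhibitor of caspases, had 91.4 and 104 normalized CPM in controls and 146 and 161 after chaetocin, a log2 fold change of 0.66 (edgeR adjusted p = 0.0655, DESeq2 adjusted p = 0.019). Its edgeR adjusted p was 0.0487 with upper-quartile normalization, 0.00937 without the filter, 0.00233 with a replicate block, and 0.00173 and 0.0177 without chaetocin replicate 1 and 2. It was 0.532 and 0.223 without control replicate 1 and 2. Both chaetocin samples lay above both controls.

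Genes that act on the member proteins or transcripts were also tested, with the same shares over all genes for comparison: 1.85% by edgeR, 5.08% by DESeq2 and 20.3% at an unadjusted edgeR p under 0.05. Of 8 genes of protein turnover 0 passed by edgeR or DESeq2 and 0 had an unadjusted edgeR p under 0.05, among them *HUWE1*, a ubiquitin ligase of MCL1, with a log2 fold change of -0.45 (edgeR adjusted p = 0.275), and *USP9X*, a deubiquitinase that stabilizes MCL1, with -0.37 (adjusted p = 0.302). Without chaetocin replicate 2 these were -0.75 (adjusted p = 0.0115) and -0.62 (adjusted p = 0.0176), and without chaetocin replicate 1 they were -0.20 and -0.17. Of 10 splicing regulators 9 were tested, 0 passed by either tool and 0 had an unadjusted edgeR p under 0.05, among them *HNRNPK*, at -0.35 (adjusted p = 0.278), and *RBM25*, at 0.17 (adjusted p = 0.611). The value of *RBM25* was 0.01 without control replicate 1, 0.32 without control replicate 2, 0.07 without chaetocin replicate 1 and 0.26 without chaetocin replicate 2. Of 14 transcription factors known to act on members 4 had an unadjusted edgeR p under 0.05, against 20.3% of all genes. By edgeR 1 passed, against 1.85% of all genes, and by DESeq2 1, against 5.08%. Both tools called *E2F1*, a regulator of S phase entry. It rose from 166 and 175 to 345 and 315 normalized CPM, a log2 fold change of 0.95 (edgeR adjusted p = 0.0311). Without control replicate 1 or 2 its adjusted p was 0.144 or 0.106, with log2 fold changes of 0.90 and 0.98.

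**Figure D5:**
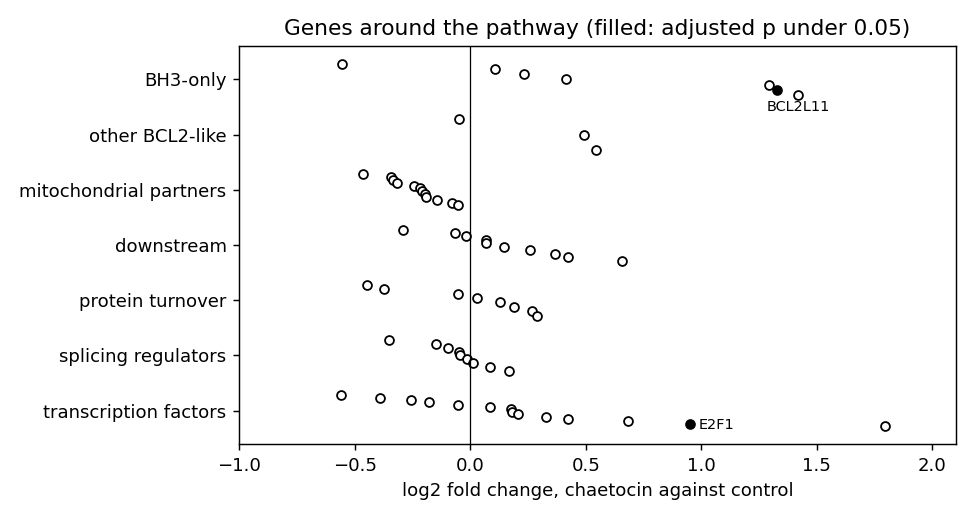
Fitted log2 fold changes of the tested genes in 7 lists around the members, 1 point per gene, filled where the adjusted p was under 0.05. *BCL2L11* and *E2F1* are the filled points, and all 12 mitochondrial partners lie below 0 in this fit (10 to 12 under the alternatives).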

How the data were processed

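Polyadenylated RNA of 4 U87MG samples was sequenced as single-end reads, 2 untreated and 2 after chaetocin, grouped by their titles. The authors deposited raw counts of reads per Ensembl gene, 1 table per sample, without normalization. The submitters' processing notes name cutadapt, TopHat2, TopHat and SAMtools and the build GRCh37. The counting tool and annotation are not given in the sources used here. Symbols, lengths and positions came from GENCODE v29 on GRCh38 by identifier (52338 of 57905 found), so lengths approximate those behind the counts.

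Counts were analysed in R 4.3.3 with edgeR 4.0.16: filterByExpr (minimum count 10), TMM normalization and a robust quasi-likelihood test without a block, with Benjamini-Hochberg adjustment over 16416 genes and a threshold of 0.05. Standard errors were the log2 fold change divided by the root of F. CPM were scaled by TMM library sizes. DESeq2, which the study's methods name in another version, was run as an alternative in version 1.42.0. The test was also run on simulated data, and the outcome is not reported here. Levels between genes were CPM per kb of exon. Named genes were the 8 members, called genes of each list (up to 4) or otherwise its 2 genes with the lowest p, and overlapping genes. *VIM*, *CD44*, *FN1*, *SPARC*, *CSF1R*, *GFAP*, *SOX2*, *BID*, *BAK1P1* and the T and B cell markers were named after their values were seen. The members and lists were chosen with earlier results of these data known. Protein sequences were not analysed here. Some genes that the naming rule covers are not reported here.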

Additional observations from a re-analysis of the deposited data

How the results depend on the processing

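The fitted differences of *MCL1*, *BCL2L1*, *BCL2L2* and *BAX* kept their sign under every alternative run. Whether an adjusted p of 0.05 was passed changed with the alternative for *MCL1*, *BCL2L1* and *BAX*. *BCL2L2* did not pass it under any alternative. Against 182 genes higher and 122 lower as reported, the counts were 787 and 759 without a filter on low counts, 114 and 80 when each sample had to reach 10 counts, 382 and 478 with DESeq2, 113 and 67 after thinning to the smallest library, and 1791 and 1548 at an unadjusted p under 0.05. With each sample left out in turn they ranged from 215 to 1332 and from 97 to 1673, the highest without chaetocin replicate 1, with 712 and 940 without chaetocin replicate 2. Where a single sample remained in a group it was assumed to vary like the other group. The cause of these shifts was not tested. The replicate block gave 1036 and 1053 genes, adjusted p-values of 0.0185 for *MCL1*, 0.0232 for *BCL2L1*, 0.0455 for *BCL2L12* and 0.00233 for *XIAP*, and a log2 fold change of -0.0051 for *BAK1*. The numbers are shared by label only, and across genes the replicate differences of the controls and of the treated samples had r = 0.191. Leaving out samples gave between -0.0591 and 0.66 for *BCL2* and between -0.35 and 0.30 for *BAK1*. The guardian to effector difference was between -1.03 and -0.79 with a sample left out, -0.093 with equal weights, -0.74 without *MCL1* and -0.54 without *BAX*, where the groups overlapped and the value was 0.01 without chaetocin replicate 2 and -1.08 without chaetocin replicate 1. With at most 7 reads in a library, depth limits what can be said of *BCL2A1* and *BOK*.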
